A study of Mus musculus with 3 samples.

Results

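Marginal zone B cells were selected from single-cell RNA sequencing of mouse splenocytes in 3 libraries, and 4053 cells met the rule among 47453 cells that passed the limits on barcodes. They made up 1480 of 15957 such cells in the C57BL/6 control library, 1261 of 13982 in the C57BL/6 Ang II library and 1312 of 17514 in the B6.SLE123 library. A cell was taken when it held at least 1 molecule of Cd79a, a chain of the B cell receptor, none of Fcer2a, which encodes the follicular B cell marker CD23, and 3 or more molecules summed over Cr2, Cd1d1, Dtx1, Myof and S1pr3. Cells with any molecule of Cd3e, Lyz2, Nkg7, Sdc1 or Mki67, which mark T cells, myeloid cells, NK cells, plasma cells and dividing cells, were left out. Molecules were counted by unique molecular identifiers (UMIs), and levels are given as CPM, the UMIs of a gene scaled to a common total over all cells of a class in a library. The values of these 12 genes chose the cells and are given as a description.

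Marginal zone B cells line the border between the white and the red pulp of the spleen, where blood slows and releases its particles. Their formation requires the receptor NOTCH2 and its ligand DLL1 on stromal cells, and S1P receptors and integrins hold them in place. They carry much CR2 (CD21), a complement receptor, and CD1d, which presents lipids, and they answer blood-borne microbes quickly with IgM.

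Spleens of 12 to 14 week old mice had been depleted of T cells with CD3 microbeads, and cells were measured with the 10x Genomics 5′ assay and hashtag antibodies. The control library pooled male C57BL/6 mice with a sham pump and female C57BL/6 mice. In the Ang II library, C57BL/6 mice received angiotensin II at 490 µg/kg/min, as the labels write it, for 2 weeks from 10 weeks of age, together with placebo or 2-HOBA, a scavenger of isolevuglandins. The B6.SLE123 library came from this lupus-prone strain, which carries 3 NZM2410 intervals named Sle1, Sle2 and Sle3 on a C57BL/6 background, after 6 weeks of placebo or 2-HOBA from 7 weeks of age. Each of the 2 conditions in a library was a pool of 3 mice. The labels do not tie a hashtag to a condition, so the 6 hashtag populations of a library (C0301 to C0306) were kept unassigned and 2-HOBA was not analysed here. The labels do not say whether a hashtag population was 1 mouse, so its spread may or may not be that between mice. Each group was 1 library, so nothing was tested, and every interval covers counting error only. Library, strain and treatment cannot be told apart, and sex differed between the Ang II and B6.SLE123 libraries.

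The libraries held 44146350, 59043555 and 63516694 gene UMIs, in the order control, Ang II and B6.SLE123, which is kept below. Marginal zone B cells had a median of 2807, 3949 and 2992.5 UMIs per cell, against 1660, 2487 and 1642 in follicular B cells, here the cells with Cd79a and Fcer2a and none of the 5 panel genes. That class leaves out B cells with Fcer2a and any panel UMI, and Cr2 alone had a UMI in 43.6%, 53.6% and 30.6% of B cells. Comparisons with follicular B cells below are therefore not with all B cells that hold Fcer2a. Libraries shared between 320 and 367 of the kept barcodes, of which 2 to 4 were marginal zone B cells in both libraries of a pair. In the marginal zone B cells of the control library, C0301 to C0303 held 131 to 163 CPM of Y-linked genes and C0304 to C0306 held 722 to 829 CPM of Xist, the RNA of the inactive X chromosome. Marginal zone B cells of the Ang II library had 137 to 176 CPM of Y-linked genes and no Xist UMI, and those of the B6.SLE123 library had 456 to 676 CPM of Xist and no UMI of a Y-linked gene.

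Marginal zone B cells were 11.5% of B cells in the control library (1480 of 12818, exact Clopper-Pearson 95% interval 11 to 12.1). Their share was 11.7% in the Ang II library (1261 of 10810, 11.1 to 12.3) and 10.5% in the B6.SLE123 library (1312 of 12549, 9.92 to 11). The log2 ratio to the control library was 0.015 for Ang II (95% interval -0.095 to 0.12) and -0.14 for B6.SLE123 (-0.25 to -0.035). Hashtag populations within a library differed by more than the libraries did. Their shares ran from 7.10% to 18.6% with a median of 11.6% in the control library, from 10.3% to 14.0% with a median of 11.5% in the Ang II library, and from 7.55% to 13.1% with a median of 10.8% in the B6.SLE123 library. All 3 ranges overlapped, and the control range was the widest.

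Within the control library the marginal zone share was 8.79% over C0301 to C0303, the populations with Y-linked RNA, and 14.6% over C0304 to C0306, those with Xist. The B6.SLE123 ratio was 0.25 against the former (0.11 to 0.39) and -0.48 against the latter (-0.61 to -0.36). The Ang II ratio was 0.41 (0.27 to 0.55) and -0.33 (-0.45 to -0.20). The direction therefore depended on which control populations stood for the control. By Y-linked RNA and Xist, C0301 to C0303 matched the Ang II library in sex and C0304 to C0306 the B6.SLE123 library. The ratios of matched sex were therefore 0.41 for Ang II and -0.48 for B6.SLE123. Within the control library sex went with the sham pump, so the parts of both cannot be told apart. Comparisons below use the whole control library unless stated. C0305 of the control library had the highest share, 18.6%, and without it the B6.SLE123 ratio was 0.051 (-0.066 to 0.17).

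The share in the B6.SLE123 library also depended on the panel. Without Cr2 in the panel and with 2 or more UMIs of the other 4 genes, the share was 8.46% in the B6.SLE123 library and 7.51% in the control library, a log2 ratio of 0.17. Without both Cr2 and Myof, chosen after the values of Myof were seen, the shares were 8.45% and 6.40%, a ratio of 0.40. When each cell was thinned to 1000 UMIs, which left out 1388 control and 2180 B6.SLE123 cells below that depth, the shares were 4.72% and 2.48%. Follicular B cells made up 19.5%, 20.7% and 12.2% of B cells. Their hashtag ranges in the control (15.5% to 22.2%) and B6.SLE123 libraries (9.79% to 14.5%) did not overlap. Over all B cells Fcer2a, which defines that class, stood at 312, 399 and 126 CPM. It was found in 41.0%, 58.1% and 21.2% of them. B cells with neither an Fcer2a nor a panel UMI numbered 3730, 1724 and 5440. The part of the Fcer2a level in the follicular share was not tested.

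**Figure D1:**
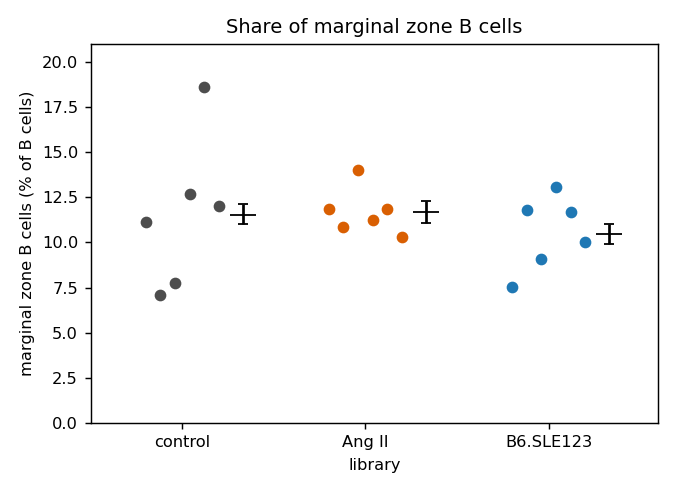
Marginal zone B cells as a share of B cells (%, y axis) in each library (x axis); coloured points are the 6 hashtag populations in the order C0301 to C0306, and the black mark with its whiskers is the library as a whole with its exact 95% interval. The populations of the 3 libraries overlap, and the control populations are the most spread, from 7.10% to 18.6%.

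The panel genes that chose the cells were not carried alike in the 3 libraries. Cr2 (chr1:195136811-195176716 on GRCm38) stood at 1291 CPM in the control library, 1073 CPM in the Ang II library and 780 CPM in the B6.SLE123 library, with hashtag ranges of 996 to 1385, 1035 to 1107 and 535 to 931 CPM. Myof (chr19:37899036-38043577), which encodes the membrane repair protein myoferlin, stood at 118, 102 and 2.27 CPM. A Myof UMI was found in 26.6% and 29.4% of the marginal zone B cells of both C57BL/6 libraries and in 0.76% of those of the B6.SLE123 library. Over all B cells, which the panel did not choose, the Myof levels were 29.6, 26.5 and 0.37 CPM. NK cells held no Myof UMI in the control and B6.SLE123 libraries and 2 in the Ang II library.

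The other panel genes differed less. Cd1d1, the gene of CD1d, stood at 161, 135 and 135 CPM. Dtx1, a Notch target that encodes the ubiquitin ligase Deltex, stood at 344, 388 and 401 CPM, and S1pr3, an S1P receptor, at 83.7, 77.3 and 86.4 CPM. The panel sum per cell had a median of 5, 6 and 4 UMIs, and 17.0%, 27.5% and 3.51% of the cells reached 10 or more.

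Cells just inside the threshold, with a panel sum of 3, numbered 398, 273 and 488, which was 26.9%, 21.6% and 37.2% of the marginal zone B cells. Just outside it, with a sum of 2, were 766, 538 and 958 cells. Another 716, 1622 and 255 B cells reached 3 panel UMIs but held an Fcer2a UMI and were left out. Those cells lay between both classes in genes that the rule did not use. Their summed level of 12 other genes known from marginal zone B cells was 1772, 1363 and 2016 CPM, against 3148, 2731 and 3202 CPM in marginal zone B cells and 833, 649 and 1152 CPM in follicular B cells.

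The 2 gene lists that bear on the name of the cells, neither of which shares a gene with the rule, changed stepwise with the panel sum among cells without Fcer2a. In the control library the summed marginal zone genes went from 1164 CPM at a panel sum of 0 through 2306 CPM at 3 to 4 to 3884 CPM at 10 or more. The summed follicular genes went the other way, from 4228 through 2467 to 1120 CPM. The Ang II library had the same order in both lists at these sums, from 1044 to 3688 CPM and from 4254 to 1260 CPM. In the B6.SLE123 library the marginal zone genes began higher, at 1913 CPM, and reached 3516 CPM at a sum of 5 to 9 and 3512 CPM at 10 or more, the latter over 46 cells. The median depth moved with the panel sum, from 1557 UMIs at 0 to 3795 UMIs at 10 or more in the control library, and its part in these values was not tested.

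**Figure D2:**
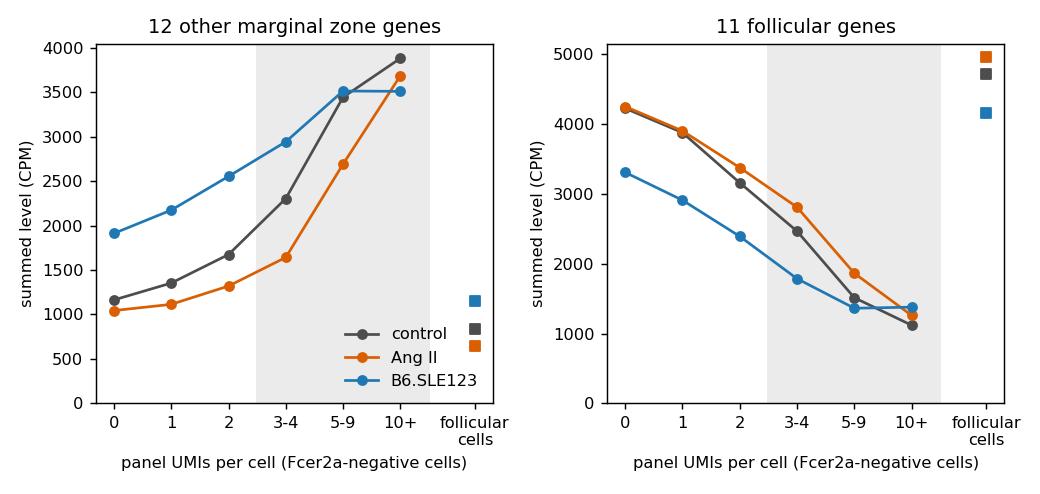
Summed CPM (y axis) of 12 other marginal zone genes (left) and of 11 follicular genes (right) by the panel UMIs per cell (x axis) in B cells without Fcer2a, 1 line per library; the shaded range holds the cells taken as marginal zone B cells, and squares are follicular B cells. Marginal zone genes climb and follicular genes drop from 0 to 5-9 panel UMIs in each library, and the B6.SLE123 line of marginal zone genes begins highest, at 1913 CPM.

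Against follicular B cells of the same library, 8235 genes had 50 or more UMIs over both classes in every library. Of these, 137 were 2-fold or more higher in marginal zone B cells in all 3 libraries (1.66%) and 117 were 2-fold or more lower (1.42%). The 137 include 4 panel genes and the 117 include Fcer2a, whose directions were fixed by the rule. In 103 of the 137 and in 94 of the 117, all 18 hashtag populations showed the direction, as 302 and 456 of all compared genes did. The median log2 ratio over all compared genes was -0.11. Classes of cells from 1 library are no replicates, and these counts describe the 3 libraries. The cells also differed in depth, and among cells of 2000 to 4000 UMIs alone, where fewer genes reached 50 UMIs, the counts were 60 and 33.

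All 12 other marginal zone genes were 2-fold or more higher, beside 1.66% of all compared genes, with a median log2 ratio of 2.65. Cd9, which encodes a tetraspanin, had 101, 84.2 and 105 CPM in marginal zone B cells and 7.53, 6.87 and 15.3 CPM in follicular B cells. Fcrl5, an Fc receptor-like inhibitory receptor, had 147, 173 and 159 CPM against 7.97, 8.42 and 33.4 CPM. Asb2, the substrate adaptor of a ubiquitin ligase, had 44.9, 42.2 and 26.2 CPM against 1.11, 0.34 and 2.38 CPM.

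The gap to follicular B cells was narrower in the B6.SLE123 library for several of these genes. For Fcrl5 the log2 ratio was 4.21 in the control library (95% interval 3.72 to 4.73), 4.36 in the Ang II library (3.95 to 4.81) and 2.26 in the B6.SLE123 library (1.95 to 2.58). For Cd9 it was 3.75 (3.24 to 4.30), 3.62 (3.15 to 4.12) and 2.78 (2.33 to 3.25). Plac8 had 314, 186 and 500 CPM in follicular B cells and 1150, 873 and 1207 CPM in marginal zone B cells. In Fcrl5, Cd9 and Plac8 it was the follicular level that was higher in the B6.SLE123 library, whereas the marginal zone levels differed less across libraries.

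Of the 11 follicular genes, 0 were 2-fold or more higher and 7 were 2-fold or more lower, with a median log2 ratio of -1.43. Of all compared genes 1.42% were lower. Klf2, a transcription factor that sets the trafficking of B cells, had 146, 186 and 196 CPM in marginal zone B cells and 742, 1021 and 839 CPM in follicular B cells. Cd55, which encodes a complement regulator, had 142, 160 and 107 CPM against 604, 624 and 461 CPM. Ighd, the heavy chain of IgD, had 357, 318 and 272 CPM against 1052, 781 and 758 CPM. For each UMI of Ighd, marginal zone B cells held 5.80, 4.56 and 6.12 UMIs of Ighm, the heavy chain of IgM, and follicular B cells 2.44, 1.93 and 2.87. Against follicular B cells both lists, which the rule did not use, went the way that the name of the cells calls for. Both lists were chosen with earlier results of these data known, and Fcer2a and the panel also set the follicular class. The values are therefore a description and not a separate check of the name. The marginal zone genes did not set the cells apart from B1-like cells (defined below), which also lack Fcer2a. There they summed to 3732, 2940 and 3451 CPM, against 3148, 2731 and 3202 CPM in marginal zone B cells. The follicular genes summed to 2313, 3099 and 2470 CPM in B1-like cells, against 1756, 1931 and 1596 CPM. B1-like cells were few, at 39, 50 and 268. Neutrophil markers summed to 1038, 1746 and 141 CPM in them, against 101, 181 and 171 CPM in marginal zone B cells. In both C57BL/6 libraries they are therefore a small class that is not free of neutrophil RNA.

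Of 3 measured transitional B cell genes, those with at least 50 UMIs, 2 were lower, beside 1.42% of all compared genes. Of 4 measured B1 genes 1 was lower and none was 2-fold higher than in follicular B cells. Marginal zone macrophage markers summed to 0.22, 0.74 and 0 CPM, and T cell markers to 3.05, 5.39 and 3.41 CPM. NK cell markers stood at 3.49, 2.97 and 5.46 CPM, against 18238, 13096 and 15601 CPM in NK cells. Myeloid markers summed to 257, 195 and 228 CPM and neutrophil markers to 101, 181 and 171 CPM, in each library less than in follicular B cells.

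**Figure D3:**
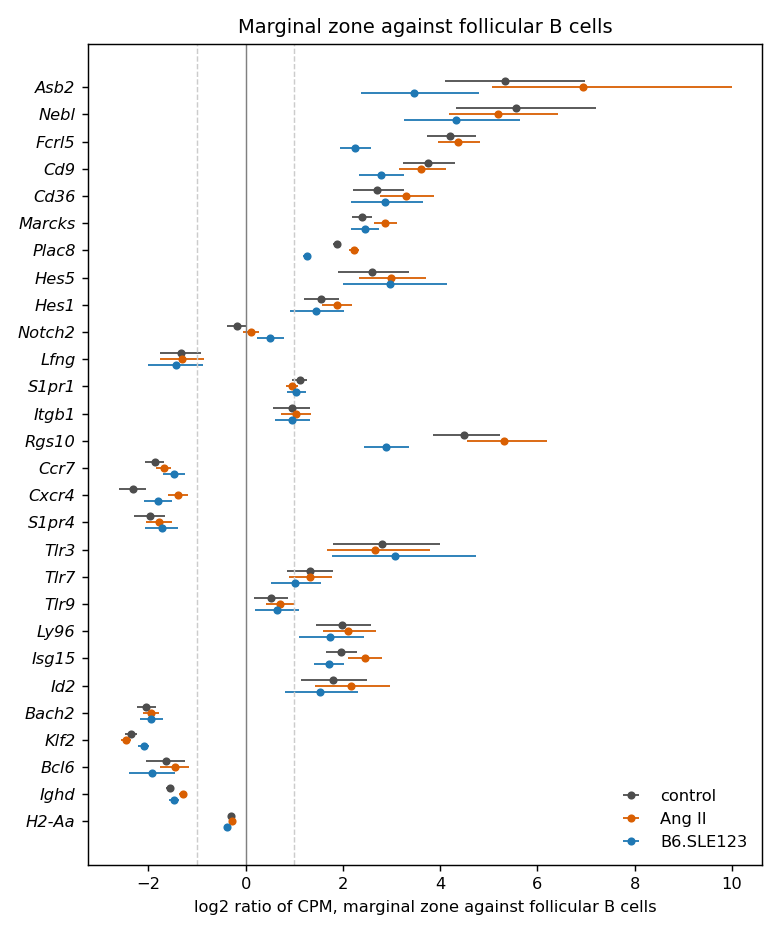
Log2 ratio of CPM in marginal zone over follicular B cells (x axis) for 28 genes of the lists (y axis), 1 point per library with its exact 95% interval; dashed lines mark 2-fold. Fcrl5, Cd9, Plac8 and Rgs10 have a lower ratio in the B6.SLE123 library than in both C57BL/6 libraries, and Notch2 and H2-Aa, an MHC class II gene, lie within 2-fold in all 3.

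The 15 genes of highest median ratio included the following. Nrp2, a receptor of semaphorins, had 22, 13.6 and 16.6 CPM in marginal zone B cells and at most 0.44 CPM in follicular B cells. Plxnd1, a plexin, had 32.7, 30.3 and 29.6 CPM against 1.55, 0.86 and 2.38 CPM. Ackr3, a scavenging receptor of CXCL12, had 17.7, 11.9 and 14.1 CPM, and no UMI in follicular B cells of either C57BL/6 library, so that its log2 ratio was at least 4.73 and at least 4.53 there, with 3 UMIs taken as the floor. Ackr2, a scavenging receptor of inflammatory chemokines, had 16.8, 20.4 and 12.7 CPM against 0.22, 0.34 and 2.04 CPM.

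Serpine2, a protease inhibitor, had 31.2, 33.6 and 43.0 CPM against 0.44, 0.52 and 2.38 CPM, and Tspan15, a tetraspanin, had 20.1, 19.0 and 16.4 CPM against 0, 0 and 0.34 CPM. Rgs10, which speeds the shutdown of G proteins, had 100, 95.6 and 113 CPM against 4.43, 2.41 and 15.3 CPM.

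Of 15 measured genes of positioning and adhesion 1 was 2-fold or more higher (Rgs10) and 4 were lower. Over all compared genes the shares were 1.66% and 1.42%. The lower ones were Ccr7 (55.8, 83.8 and 58.7 CPM against 204, 269 and 162 CPM), the receptor that draws cells to T cell zones, Cxcr4, S1pr4 and the integrin chain Itgb7. S1pr1, the S1P receptor that keeps marginal zone B cells at the sinus, stood at 237, 268 and 209 CPM against 110, 139 and 102 CPM, log2 ratios of 1.11, 0.95 and 1.04. It fell short of 2-fold in the Ang II library only.

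Among 15 measured genes of the Notch pathway, 2 targets were 2-fold or more higher, Hes5 and Hes1, and 1 modifier was lower, Lfng. Over all compared genes the shares were 1.66% and 1.42%. Hes5 (chr4:154960923-154962371), a transcriptional repressor, had 26.8, 29.9 and 24.1 CPM in marginal zone B cells and 4.43, 3.78 and 3.07 CPM in follicular B cells, log2 ratios of 2.6, 2.99 and 2.98. Hes1 had 58.4, 74.7 and 32.5 CPM against 19.9, 20.4 and 11.9 CPM. Notch2 itself did not separate the classes, at 75.6, 107 and 76.2 CPM against 85.5, 99.0 and 53.5 CPM. Lfng, the sugar transferase that modifies Notch receptors, stood at 15, 11 and 9.78 CPM against 37.9, 27.0 and 26.2 CPM.

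Notch signals act through the DNA-binding protein RBPJ, and promoters were searched for its core motif GTGGGAA on both strands (TTCCCAC on the other), in windows of 300 bases around the start of each gene in RefSeq (GRCm38.p6). It was held by 12 of the 100 genes with a window that were higher in marginal zone B cells (12%), by 7 of 86 that were lower (8.14%) and by 445 of all 6533 compared genes with a window (6.81%). Panel genes, whose place among the higher genes the rule fixed, were not left out here, and Cr2 is 1 of the 12. The 250 bases before the start are shown for Hes5, for the panel gene Cr2 and for Cd9, which were among those 12. Each reads 5′ to 3′ on the strand of its gene, with the motif in capitals, at chr4:154960673-154960922 (plus strand), chr1:195176720-195176969 (minus) and chr6:125494761-125495010 (minus).
Hes5: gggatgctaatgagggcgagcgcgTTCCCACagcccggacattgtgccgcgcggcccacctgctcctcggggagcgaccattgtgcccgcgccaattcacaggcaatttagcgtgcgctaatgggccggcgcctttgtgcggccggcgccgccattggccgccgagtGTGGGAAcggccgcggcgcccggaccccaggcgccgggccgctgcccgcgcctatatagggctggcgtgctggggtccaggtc
Cr2: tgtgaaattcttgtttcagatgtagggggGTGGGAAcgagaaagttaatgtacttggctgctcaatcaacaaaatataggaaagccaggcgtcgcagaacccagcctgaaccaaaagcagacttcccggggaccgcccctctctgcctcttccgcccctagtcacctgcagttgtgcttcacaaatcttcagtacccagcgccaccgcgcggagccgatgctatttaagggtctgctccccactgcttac
Cd9: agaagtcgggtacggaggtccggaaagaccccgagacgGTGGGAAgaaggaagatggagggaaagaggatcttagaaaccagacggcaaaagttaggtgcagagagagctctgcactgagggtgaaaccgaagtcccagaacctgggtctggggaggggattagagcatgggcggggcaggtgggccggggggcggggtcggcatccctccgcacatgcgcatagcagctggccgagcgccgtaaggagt
The Hes5 window held 2 copies, 226 and 83 bases before the start, the former on the other strand. Cr2 and Cd9 held 1 each, 221 and 212 bases before. The 4 genes of the Notch list with the motif were Hes5, Lfng, Psen2 and Spen, of 14 with a window. A match of letters is not a measured binding site.

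Of 9 measured innate sensing genes 3 were 2-fold or more higher than in follicular B cells, beside 1.66% of all compared genes. The list summed to 1660, 1717 and 1671 CPM in marginal zone B cells and to 1689, 1529 and 1586 CPM in B1-like cells. Tlr3, which senses double-stranded RNA, had 14.0, 10.8 and 14.3 CPM against 1.99, 1.72 and 1.70 CPM in follicular B cells. Tlr7, which senses single-stranded RNA, had 30.3, 28.1 and 29.8 CPM against 12.2, 11.2 and 14.6 CPM, and Ly96, the partner of TLR4, had 29.9, 27.5 and 27.3 CPM against 7.53, 6.36 and 8.18 CPM. Isg15, an interferon-induced ubiquitin-like protein, was the only 1 of 7 measured interferon response genes that was 2-fold higher, at 91.8, 74.9 and 117 CPM against 23.5, 13.7 and 35.8 CPM. It had a UMI in 20.1% of the marginal zone and 3.09% of the follicular B cells of the control library, at median depths of 2807 and 1660 UMIs.

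In the other lists the following genes passed 2-fold, beside 1.66% of all compared genes higher and 1.42% lower. The antibody secretion programme held 2 of 10, the chaperones Mzb1 (751, 683 and 869 CPM against 324, 292 and 410 CPM) and Pdia4 (417, 470 and 474 CPM against 119, 142 and 188 CPM). B cell receptor signalling held 1 of 15, the phosphatase Ptpn22. Of 22 fate regulators 1 was higher, Id2, an inhibitor of E proteins, and 6 were lower, namely Bach2, Id3, Fli1, Klf2, Klf3 and Bcl6. Bach2, a repressor of plasma cell differentiation, stood at 56.7, 68.2 and 47.5 CPM against 233, 262 and 182 CPM. MHC class II genes, BAFF receptors and immediate early genes held none that were 2-fold higher.

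Between the B6.SLE123 and the control library, 8726 genes had 50 or more UMIs over the marginal zone B cells of both. In the B6.SLE123 library 103 of them were 2-fold or more higher (1.18%) and 101 were 2-fold or more lower (1.16%). For 142 genes every B6.SLE123 hashtag population lay above every control population (1.63%), and for 174 every one lay below (1.99%). Immunoglobulin segment genes, which follow the clones present, made up 29 of the 103 and 12 of the 101. They and the genes of the rule were left out when genes were named.

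Ifitm2 (chr7:140954837-140955987), a membrane protein of the interferon-induced IFITM family that hinders virus entry, had 7.41 CPM in the control library, 4.09 CPM in the Ang II library and 3448 CPM in the B6.SLE123 library. The 6 B6.SLE123 populations ran from 2114 to 4531 CPM and the control populations from 0 to 12.2 CPM. It had a UMI in 98.1% of B6.SLE123 marginal zone B cells and 1.49% of control ones, and in 53.3% and 2.90% of NK cells at median depths of 1371 and 1749.5 UMIs. Its log2 ratio was 8.86 in marginal zone (8.38 to 9.39) and 8.50 in follicular B cells, with a level of 4572 CPM in the latter.

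Ifitm1 (chr7:140967221-140969825), its neighbour, had 11.6, 6.51 and 1008 CPM, with a log2 ratio of 6.45 (6.06 to 6.87). Its 53 control UMIs lay in 4 of 1480 cells, C0302 alone stood at 77.7 CPM, and without that population the ratio was 9.17. The IFITM genes resemble each other, so the split of reads between them is uncertain. The interferon response list, which does not hold the IFITM genes, had 0 of 9 measured members that were 2-fold higher or lower. Isg15 stood at 91.8 CPM in the control and 117 CPM in the B6.SLE123 marginal zone B cells.

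Other genes of highest ratio without overlap were Klk8, a secreted protease (1.31, 0.74 and 37.5 CPM), Cxcr3, a chemokine receptor of activated lymphocytes (1.31, 1.49 and 11.6 CPM), and Rgl1, an exchange factor of Ral (2.62, 1.49 and 16.8 CPM). Klk8 had a log2 ratio of 4.84 (3.69 to 6.31) and Cxcr3 of 3.15 (1.93 to 4.66). In follicular B cells both were under the minimum of 50 UMIs, with 4 UMIs each in the control library and 28 of Klk8 and 23 of Cxcr3 in the B6.SLE123 library. For Cxcr3 the populations nearly touched, at 5.067 CPM for the lowest of the B6.SLE123 and 5.066 CPM for the highest of the control library. Ftl1-ps1 stood at 11.1, 37.9 and 325 CPM, while Ftl1, the ferritin light chain gene that it resembles, stood at 932 CPM in the control and 414 CPM in the B6.SLE123 library, and the levels of both are uncertain for that reason. The predicted genes Gm45552, Gm4316, Gm15545 and Gm42031 completed the 10, with log2 ratios of 2.74 to 4.41.

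Several genes were at or near 0 in the B6.SLE123 library. Htatip2 (chr7:49759115-49773975) had 15.7 and 18 CPM in both C57BL/6 libraries and no UMI in the 6 B6.SLE123 populations, so it was at least 23.0-fold lower than in the control library with 3 UMIs as the floor. Ffar1 (chr7:30857390-30861564), a receptor of long-chain fatty acids, had 32.0, 24.7 and 1.14 CPM, with a log2 ratio of -4.82 (-6.46 to -3.56) and of -5.08 in follicular B cells. Isoc2a had 20.3, 21 and 1.14 CPM. Gm19951, BC147527, Gm31597 and Hist1h4m had no UMI in the B6.SLE123 marginal zone B cells and 11.3 to 22.9 CPM in the control ones. Ccdc61 had 15.5, 13.8 and 2.73 CPM, and Arhgap11a had 11.8, 8.74 and 2.28 CPM.

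Lrrc25, which encodes a leucine-rich repeat protein, stood at 18.3, 21.4 and 5.23 CPM in marginal zone B cells, log2 ratio -1.81 (-2.54 to -1.13). Follicular B cells held 9 UMIs in the control and 7 in the B6.SLE123 library, too few for a comparison by the minimum of 50 UMIs. The Notch target Hes5 stood at 26.8 and 24.1 CPM in both libraries (log2 ratio -0.15, -0.54 to 0.23), while Hes1 stood at 58.4 and 32.5 CPM (-0.84, -1.15 to -0.55) with overlapping populations. Asb2 was lower without overlap, at 44.9 and 26.2 CPM (-0.78, -1.12 to -0.44). Its populations nearly touched, at 32.7 CPM for the highest of the B6.SLE123 and 33.3 CPM for the lowest of the control library. Against control C0301 to C0303 its log2 ratio was -0.51.

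Chromosome 7, on which Sle3 lies, held 27 of the 204 genes past 2-fold among 629 compared there (4.29%), beside 2.34% of all compared genes. The shares on chromosomes 1 and 4, with Sle1 and Sle2, were 1.64% (8 of 488) and 2.46% (13 of 529). Chromosomes 12 and 6, which hold the heavy and kappa chain segments, had 7.24% and 5.66%, chromosome 13 had 3.66% and chromosome 8 had 3.20%. Without overlap were 52 genes on chromosome 7, 21 on chromosome 1 and 14 on chromosome 4, of 316 in all (3.62% of compared genes). Ifitm1, Ifitm2, Klk8, Ffar1, Htatip2 and Isoc2a all lie on chromosome 7.

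**Figure D4:**
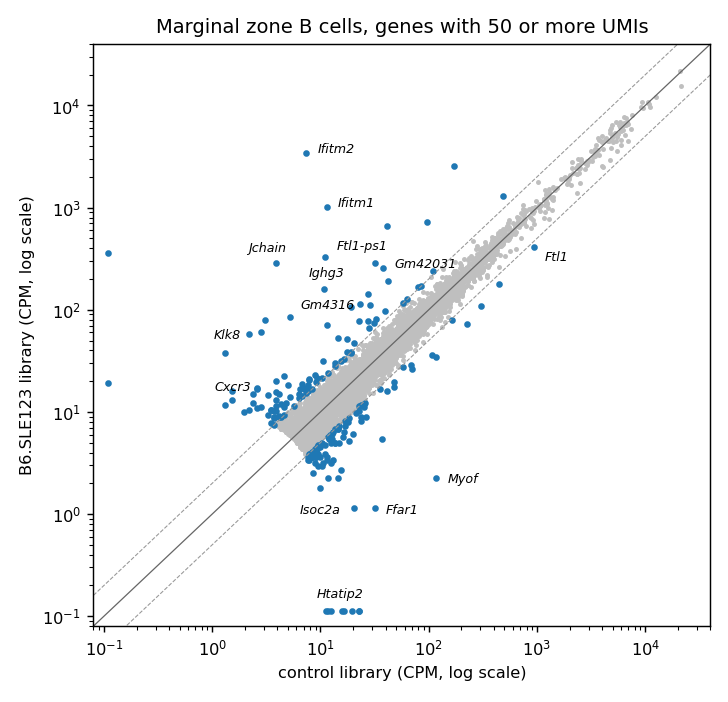
CPM in marginal zone B cells of the control library (x axis, log scale) and of the B6.SLE123 library (y axis, log scale) for genes with 50 or more UMIs; blue points lie beyond the dashed 2-fold lines, and genes with no UMI in a library are drawn at the level of less than 1 UMI, near the edge. Ifitm2 and Ifitm1 stand far above the diagonal at 3448 and 1008 CPM, and Myof, Ffar1 and Htatip2 far below it.

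Of 16 measured immediate early and activation genes 4 were 2-fold or more higher in the B6.SLE123 library, beside 1.18% of all compared genes, and the list median log2 ratio was 0.75, against -0.02 over all compared genes. The summed level of the list overlapped between the populations of both libraries, at 676 to 1184 CPM in the control and 1015 to 1487 CPM in the B6.SLE123 library. Cd69, an early surface marker of activation, stood at 63.2 and 127 CPM, Jun at 85.4 and 173 CPM, Fos at 13.5 and 29.8 CPM, and Fosb at 16.4 and 33.2 CPM. In all 4 the hashtag populations of both libraries overlapped, and each fell short of 2-fold under some alternative. Against C0301 to C0303 of the control library the log2 ratios were 0.78 for Cd69, 0.63 for Jun and 0.77 for Fos, and against C0304 to C0306 that of Fosb was 0.79. Without C0303 of the B6.SLE123 library Cd69 stood at 0.76 and Fos at 0.77. Of 22 fate regulators none was past 2-fold, but Pax5 (289 and 216 CPM), Ebf1 (719 and 503 CPM) and Ets1 (315 and 264 CPM) were lower in the B6.SLE123 library with no overlap, beside 1.99% of all compared genes.

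Secreted antibody transcripts were uneven. Ighg3, the IgG3 heavy chain, stood at 10.7 CPM in the control and 158 CPM in the B6.SLE123 library, where populations ranged from 10.0 to 475 CPM. Jchain, which joins IgM and IgA into polymers, had 18, 49 and 1256 UMIs, and 88.2% of the B6.SLE123 UMIs lay in 10 cells. Cells with 3 or more UMIs of a switched heavy chain made up 0.20% (3 cells), 0.32% (4 cells) and 0.99% (13 cells) of the marginal zone B cells. These values therefore described a few cells and not the class. B1-like cells, which also occur without Fcer2a, made up 0.30%, 0.46% and 2.14% of B cells. In B6.SLE123 against control marginal zone B cells, 1 of 5 measured B1 genes was 2-fold higher, beside 1.18% of all compared genes. It was S100a6, at a log2 ratio of 1.23, or 0.55 against control C0301 to C0303. The list median was 0.57. Its summed level overlapped, at 78.4 to 358 CPM in the control and 145 to 419 CPM in the B6.SLE123 populations.

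Between the Ang II and the control library, which also served the comparison above, 8986 genes were compared, of which 98 were 2-fold or more higher in the Ang II library (1.09%) and 20 were 2-fold or more lower (0.223%). Populations did not overlap for 182 genes that were higher (2.03%) and 153 that were lower (1.7%). The median log2 ratio over all compared genes was 0.081, and with this median set to 0 the counts were 72 and 25. Immunoglobulin segment genes made up 36 of the 98 and 5 of the 20, and Xist was among the lower genes.

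Ngp, which encodes a granule protein of neutrophils, had the highest ratio, with 0.87 CPM in the control and 25.1 CPM in the Ang II library (log2 ratio 4.85, 3.46 to 6.74). Its populations ran from 20.8 to 32.5 CPM in the Ang II library and from 0 to 2.6 CPM in the control library. It had a UMI in 9.44% of the marginal zone, 9.54% of the follicular and 7.69% of the NK cells of the Ang II library, at median depths of 3949, 2487 and 2520 UMIs. NK cells, which should lack the gene, held it at 29.3 CPM in that library, above the level in marginal zone B cells, so no expression of Ngp in marginal zone B cells was read from these values.

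Hspa1a, a heat shock chaperone, had 4.58 CPM in the control and 36.1 CPM in the Ang II library, with a log2 ratio of 2.98 (2.33 to 3.70) that was 2.00 against control C0301 to C0303 and 4.34 against C0304 to C0306. Ccnb1ip1, a ubiquitin ligase, had 10.7 and 51.5 CPM (2.27, 1.83 to 2.74), while the B6.SLE123 library had 9.55 CPM. Both were also higher in follicular B cells, with log2 ratios of 1.83 and 2.08. Kcna3, a potassium channel of lymphocytes, had 5.01 and 12.3 CPM (1.29, 0.59 to 2.04). Acat2, Gm42031, Ftl1-ps1, Hist1h2ap, Scamp4 and Chtf8 were the others of the 10 highest, at log2 ratios of 1.21 to 2.02.

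Of 15 genes of B cell receptor signalling none was past 2-fold, and the list median log2 ratio of 0.087 lay next to the 0.081 of all compared genes. For 3 of the 15, beside 2.03% of all compared genes, populations did not overlap. The kinase genes Lyn (313 and 433 CPM) and Btk (89.6 and 120 CPM) and the adaptor gene Blnk (328 and 438 CPM) were higher in the Ang II library with no overlap, at log2 ratios of 0.47, 0.43 and 0.42. Higher without overlap were also 1 of 10 measured innate sensing genes and 1 of 22 fate regulators. The medians of these lists were -0.11 and 0.12. Unc93b1, which carries nucleic acid-sensing Toll-like receptors to endosomes, stood at 538 and 671 CPM (0.32) and Ebf1 at 719 and 904 CPM (0.33). Lower without overlap were 3 of 7 measured immunoglobulin constant genes and 1 of 11 antibody secretion genes, beside 1.7% of all compared genes. The medians of these lists were -0.26 and 0.095. Ighm was lower, at 2072 and 1451 CPM (-0.51), as were Igkc (1188 and 991 CPM), Iglc3 (1174 and 1004 CPM) and Sec61b (402 and 326 CPM). The depth per cell moved with these values, at a median of 2807 UMIs in the control and 3949 UMIs in the Ang II library, and its part in them was not tested.

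By the 2-fold rule few genes were lower in the Ang II library. Snhg5, a host of small nucleolar RNAs, had 14.8 CPM in the control and 5.58 CPM in the Ang II library (log2 ratio -1.41, -2.08 to -0.77), and 5.98 and 6.36 CPM in follicular B cells. Kctd1 had 7.41 and 3.16 CPM (-1.23, -2.16 to -0.35), and Gm9993 had 24.8 and 12.3 CPM (-1.02, -1.48 to -0.57). Endog, Slc26a2, Bola1, Tomm5, Pdzd11, Arl3 and Txn1 completed the 10 lowest without overlap, at log2 ratios of -0.85 to -0.54. Hes5 stood at 26.8 and 29.9 CPM, log2 ratio 0.16 (-0.19 to 0.51), and Hes1 at 58.4 and 74.7 CPM, 0.36 (0.13 to 0.58).

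**Figure D5:**
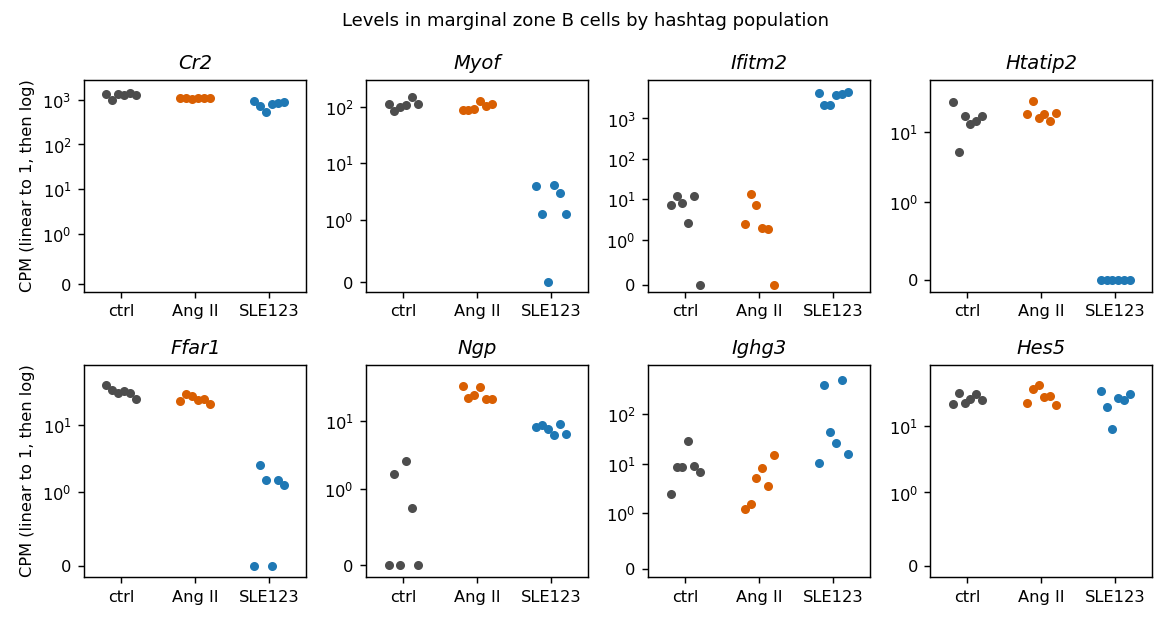
CPM (y axis, linear to 1 and logarithmic above) of 8 genes in marginal zone B cells of the control (ctrl), Ang II and B6.SLE123 (SLE123) libraries (x axis); each point is 1 of the 6 hashtag populations. Ifitm2 stands high and Myof, Htatip2 and Ffar1 low in all 6 B6.SLE123 populations, Ngp is highest in the 6 Ang II populations, Hes5 overlaps across libraries, and Ighg3 is uneven in the B6.SLE123 library, up to 475 CPM.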

How the data were processed

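Gene and hashtag counts of 3 libraries were deposited as raw UMI counts per barcode, not normalized, which per the labels and file headers came from Cell Ranger 6.0.0 run by the authors on mm10. Barcodes were kept with 201 to 3499 genes, under 15% mitochondrial UMIs and a top hashtag at 3 times the second or more, which removed 12.1%, 11.7% and 14.0% of the barcodes within the limits (control, Ang II, B6.SLE123). Doublets within 1 hashtag were not removed. The study states its limits as RNA counts, and reading them as UMIs was an alternative. The cells, gene lists and alternatives were chosen with earlier results of these data known.

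Counts were summed per class and library in Python 3.11.15 (numpy 2.4.6, pandas 2.3.3, scipy 1.17.1) and scaled to CPM. Genes were compared with 50 or more UMIs over both classes or libraries. Shares carry exact Clopper-Pearson and log2 ratios exact conditional 95% intervals, and a ratio against 0 used a floor of 3 UMIs. The intervals were tried on simulated Poisson counts, the model they assume, and held the true ratio for 95.4% to 96.1% of genes. Counts clumped in a few cells were not simulated, so this does not cover them. No p-value was made, since each group was 1 library.

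Named genes were those of 24 fixed lists, the 10 highest and 10 lowest log2 ratios per contrast among genes whose hashtag populations did not overlap, and the 15 highest and 15 lowest medians against follicular B cells. Immunoglobulin and T cell receptor segments, Xist, Tsix, Y-linked genes and the 12 genes of the rule were left out of both rankings. Follicular B cells had Cd79a, Fcer2a and no panel gene. B1-like cells had no Fcer2a, a panel sum under 3 and 2 or more UMIs of Zbtb32, Bhlhe41, Cd5 and Itgam. The Mx1 gene of the interferon list was not analysed here. GENCODE vM21 (GRCm38) gave gene positions by Ensembl identifier and RefSeq (GRCm38.p6) the promoters. The alternatives were other panels and thresholds, no rule on Fcer2a, thinning, other scalings, a minimum of 20 UMIs, a hashtag ratio of 10 and leaving out each hashtag population. Chosen after seeing the data were the panel without Cr2 and Myof, 2 or more panel genes detected, and each set of 3 control populations.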

Additional observations from a re-analysis of the deposited data

How the results depend on the processing

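The share of marginal zone B cells in the B6.SLE123 library (log2 ratio to control -0.14) turned to 0.046 at a panel sum of 2, to 0.17 without Cr2, to 0.40 without Cr2 and Myof and to 0.25 against control C0301 to C0303 only. It kept its direction at -0.65 for a panel sum of 5, -0.0034 without Cd1d1, -0.46 without the rule on Fcer2a, -0.93 after thinning, -0.31 as a share of all kept cells and -0.48 against control C0304 to C0306. Leaving out 1 hashtag population gave -0.28 to 0.051. The Ang II ratio (0.015) was 0.16 at a panel sum of 5, 0.19 without Cr2, 0.64 without the rule on Fcer2a, -0.44 with limits read as UMIs, -0.15 after thinning, 0.29 without Cr2 and Myof, 0.41 against control C0301 to C0303 and -0.33 against C0304 to C0306, and -0.12 to 0.21 with 1 population left out. The cause of these shifts was not tested.

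Counts of genes past 2-fold in the B6.SLE123 library (103 higher, 101 lower) were 202 and 228 with a minimum of 20 UMIs, and 64 were lower against control C0301 to C0303. With 1 population left out they were 89 to 111 and 77 to 102. In the Ang II library (98 and 20) they were 221 and 81 with 20 UMIs. Against control C0301 to C0303 169 were higher, against C0304 to C0306 33 were lower, and with 1 population left out the counts were 82 to 104 and 16 to 27. Against follicular B cells (137 and 117), cells of 2000 to 4000 UMIs gave 60 and 33. The remaining alternatives kept each count within 1.5 times, but not always the genes. At a panel sum of 5, where 77 and 75 genes passed in the B6.SLE123 library, 43 and 37 were shared with the 103 and 101, and against control C0301 to C0303 40 of the 64 lower genes were. In the Ang II library 104 and 22 genes passed at a panel sum of 5, of which 58 and 12 were shared with the 98 and 20. Against control C0301 to C0303, where 169 and 21 passed, 58 and 8 were shared. Of the named genes recomputed whose interval excluded 0, S100a9, a neutrophil gene, went from 0.35 to -0.27 at a panel sum of 5 and Myof from -0.21 to 0.021 against control C0301 to C0303, both in the Ang II library, and no other changed sign. No paired analysis was possible because each group was 1 library. Genes under 50 UMIs were not called, and whether hashtag populations show differences between mice is not known.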
